A study of Mus musculus with 6 samples.

Results

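Cells that make membrane and secreted proteins fold them in the endoplasmic reticulum (ER), and the genes described here encode 10 parts of that machinery: Hspa5, Hsp90b1, Pdia4, Dnajb9, Sdf2l1, Creld2, Manf, Herpud1, Xbp1 and Ddit3. Their mRNAs were read on 6 one-colour Agilent arrays of kidney cortex from male mice of strain C57BL/6: 3 arrays for the wild type (WT) and 3 for C3aR-/-, the genotype without the receptor of the complement fragment C3a. The members were taken by name, as every array spot that was no control and carried one of these gene names, which gave 18 probes out of 56605 distinct ones and 10 of the 20596 genes tested. Both genotypes belonged to the control arm of a diabetes study. Per the labels, that arm began at 8 weeks of age, was fed chow (10% of energy as fat), was given vehicle where the diabetic arm was given streptozotocin, and was killed 20 weeks after induction. The diabetic mice were not analysed here. The labels name no allele, no deleted exons and no cell-restricted promoter for C3aR-/-, so it is taken as the genotype of the whole mouse only as far as the name says. Nor do they state that the arrays came from different animals, so p-values here cover only the sample-to-sample spread, which may be technical.

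In the ER, Hspa5 (BiP) binds unfolded stretches of new proteins, and with the other chaperones and disulfide-forming enzymes it keeps them soluble until they fold. When unfolded proteins build up, the membrane sensors Ire1, Perk and Atf6 start the unfolded protein response: Ire1 splices Xbp1 mRNA into the form that encodes the active factor, Perk slows translation and favours Atf4 and then Ddit3 (CHOP), and Atf6 is cut to release a transcription factor. Chaperone genes, the genes of ER-associated degradation (ERAD) and the folding enzymes are the classical targets of Xbp1 and Atf6. In the kidney this response has been described in tubule cells and podocytes under proteinuria, toxins or lack of oxygen.

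Across the members, no gene passed the test between the genotypes (limma, adjusted over all genes, threshold 0.05), beside 14.4% of all genes, and 3 had an unadjusted p under 0.05, beside 33.4% of all genes. All 10 had a positive log2 change. On the log2 scale the changes, C3aR-/- minus WT, lay between 0.18 for Xbp1 and 0.54 for Dnajb9, with a median of 0.45. Over all genes the median was 0.02 and 52.7% were positive. The members were chosen with earlier results of these data known, so this contrast is no independent evidence. The members' values differed widely among the C3aR-/- arrays: replicates 2 and 3 read above every WT array for 9 of 10 members each, and replicate 1 for 1 of 9. In the fit that leaves out C3aR-/- replicate 1, 4 of the 10 members passed, all of them higher (Herpud1, Dnajb9, Creld2 and Manf), beside 8.01% of all genes. Replicate 1 was the lowest C3aR-/- array for every member measured on it, so leaving it out had to raise their changes. The other 5 fits with an array left out called 0 members, and without C3aR-/- replicate 2 the median was 0.26.

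ER stress target genes share short promoter motifs, and the 250 bases before the start of the members that carry one are shown here, with Pdia4 and Dnajb9 beside them because the values below turn on these genes as well. The sequences are from RefSeq on GRCm38.p6, read 5′ to 3′ on the gene's strand, and 9 of the 10 members matched an entry (Manf did not). Capitals mark the fixed letters of the ER stress response element (ERSE), of its shorter form ERSE-II, or of the C/EBP-ATF element, on either strand.
Hspa5 (chr2:34771840-34772089, plus strand): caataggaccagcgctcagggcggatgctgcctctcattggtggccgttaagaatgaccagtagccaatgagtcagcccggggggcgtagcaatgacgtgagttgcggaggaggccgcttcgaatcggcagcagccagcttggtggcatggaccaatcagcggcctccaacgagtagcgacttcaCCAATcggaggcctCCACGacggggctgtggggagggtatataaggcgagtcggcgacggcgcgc
Hsp90b1 (chr10:86705445-86705694, minus strand): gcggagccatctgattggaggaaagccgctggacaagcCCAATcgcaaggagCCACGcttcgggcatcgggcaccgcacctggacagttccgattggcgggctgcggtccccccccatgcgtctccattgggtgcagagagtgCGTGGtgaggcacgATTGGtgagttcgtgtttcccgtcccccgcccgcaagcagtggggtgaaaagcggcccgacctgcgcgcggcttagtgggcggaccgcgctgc
Creld2 (chr15:88819396-88819645, plus strand): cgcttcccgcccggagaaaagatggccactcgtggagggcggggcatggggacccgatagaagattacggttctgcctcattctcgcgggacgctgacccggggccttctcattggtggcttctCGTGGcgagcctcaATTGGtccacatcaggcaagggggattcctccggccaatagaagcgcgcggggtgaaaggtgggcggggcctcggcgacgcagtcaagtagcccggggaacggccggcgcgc
Herpud1 (chr8:94386179-94386428, plus strand): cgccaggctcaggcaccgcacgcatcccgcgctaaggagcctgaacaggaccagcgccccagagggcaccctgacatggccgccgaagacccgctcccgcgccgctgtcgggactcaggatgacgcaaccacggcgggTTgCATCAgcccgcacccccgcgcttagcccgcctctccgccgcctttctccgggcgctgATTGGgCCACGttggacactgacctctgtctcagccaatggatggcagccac
Pdia4 (chr6:47813513-47813762, minus strand): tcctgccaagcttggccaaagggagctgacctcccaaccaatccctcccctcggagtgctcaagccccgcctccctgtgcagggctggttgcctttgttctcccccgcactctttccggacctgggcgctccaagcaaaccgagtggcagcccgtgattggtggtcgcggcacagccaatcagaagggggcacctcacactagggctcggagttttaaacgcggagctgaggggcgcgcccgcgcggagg
Dnajb9 (chr12:44210069-44210318, minus strand): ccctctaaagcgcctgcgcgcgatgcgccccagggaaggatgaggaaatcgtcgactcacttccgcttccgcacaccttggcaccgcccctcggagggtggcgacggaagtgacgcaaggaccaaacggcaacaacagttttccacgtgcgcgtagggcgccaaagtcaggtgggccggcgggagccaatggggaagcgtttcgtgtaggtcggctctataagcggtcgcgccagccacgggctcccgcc

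ERSE was searched as CCAAT, then 9 bases of any kind, then CCACG, on both strands of the 250 bases before and 50 bases after each start. It was found in 3 of the 9 members with a promoter and in 39 of all 32851 promoters (0.119%). Hspa5 held it once, at 65 bases before the start, Hsp90b1 held 2 copies, beginning 212 and 107 bases before the start, the second on the opposite strand, and Creld2 held 1 on the opposite strand beginning 126 bases before it. ERSE-II, searched as ATTGG, 1 base of any kind, then CCACG, was found in Herpud1 beginning 52 bases before the start and in 12 of all promoters (0.0365%). Both motifs contain the CCAAT box, found alone in 37.4% of promoters, and CCACG, found alone in 32.8%. The C/EBP-ATF element, searched as TGATGNAA, was in Herpud1 and in 3.97% of promoters, and the Xbp1 core site TGACGTGG was in no member and in 0.676% of promoters. A match is a description of letters and shows no binding.

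The array probes that measured the members are 60-base oligos, and 4 of them are shown to make plain what was read: the second probe of Hspa5, the probe of Pdia4, the second probe of Manf and the first probe of Ddit3. They are given in lower case from the array files, with their mm9 positions.
Hspa5 (chr2:34631136-34631195, plus strand): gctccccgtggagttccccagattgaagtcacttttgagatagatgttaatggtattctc
Pdia4 (chr6:47746516-47746575, minus strand): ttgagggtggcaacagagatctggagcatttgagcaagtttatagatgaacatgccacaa
Manf (chr9:106792505-106792564, minus strand): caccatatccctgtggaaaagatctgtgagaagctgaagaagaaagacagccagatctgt
Ddit3 (chr10:126732518-126732821, plus strand): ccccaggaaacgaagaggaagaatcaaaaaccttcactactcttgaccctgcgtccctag

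The Ddit3 probe covers 304 bases of the genome with its 60 bases, so it is split over more than 1 stretch of the genome, as is the third probe of Hspa5, which covers 377. Xbp1 was read by 3 probes, and the array files do not say whether any of them distinguishes the spliced from the unspliced mRNA, so Xbp1 values here are for the gene as a whole. Of the 10 members, 6 had more than 1 probe and 4 had a single one. All 18 probes were well above background on all 6 arrays.

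Some facts of the whole series bear on every value below. Of 59305 transcript spots per array, 56.5% to 59.3% were well above background and none was saturated, so the number of arrays limits precision. C3ar1, the targeted gene, did not check the labels, because its single probe was well above background on 1 of 6 arrays (WT replicate 1). Its processed signals were 20.9, 9.19 and 14.2 on the WT arrays and 14.7, 18.6 and 11.1 on the C3aR-/- arrays. Each genotype lay on a slide and in a scan of its own, so genotype, slide and scan cannot be told apart. C3aR-/- replicate 1 had 148 spots flagged as non-uniform against 2 to 8 on the other arrays, and 1 of these was the Hsp90b1 spot. Values below are log2 of the processed signal relative to each array's 75th percentile, levels of different probes are not set against each other, and adjusted p-values are from limma over all genes, with 0.05 as the threshold. With these settings 2962 of 20596 genes (14.4%) were called, 7.05% higher and 7.33% lower in C3aR-/-.

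**Figure D1:**
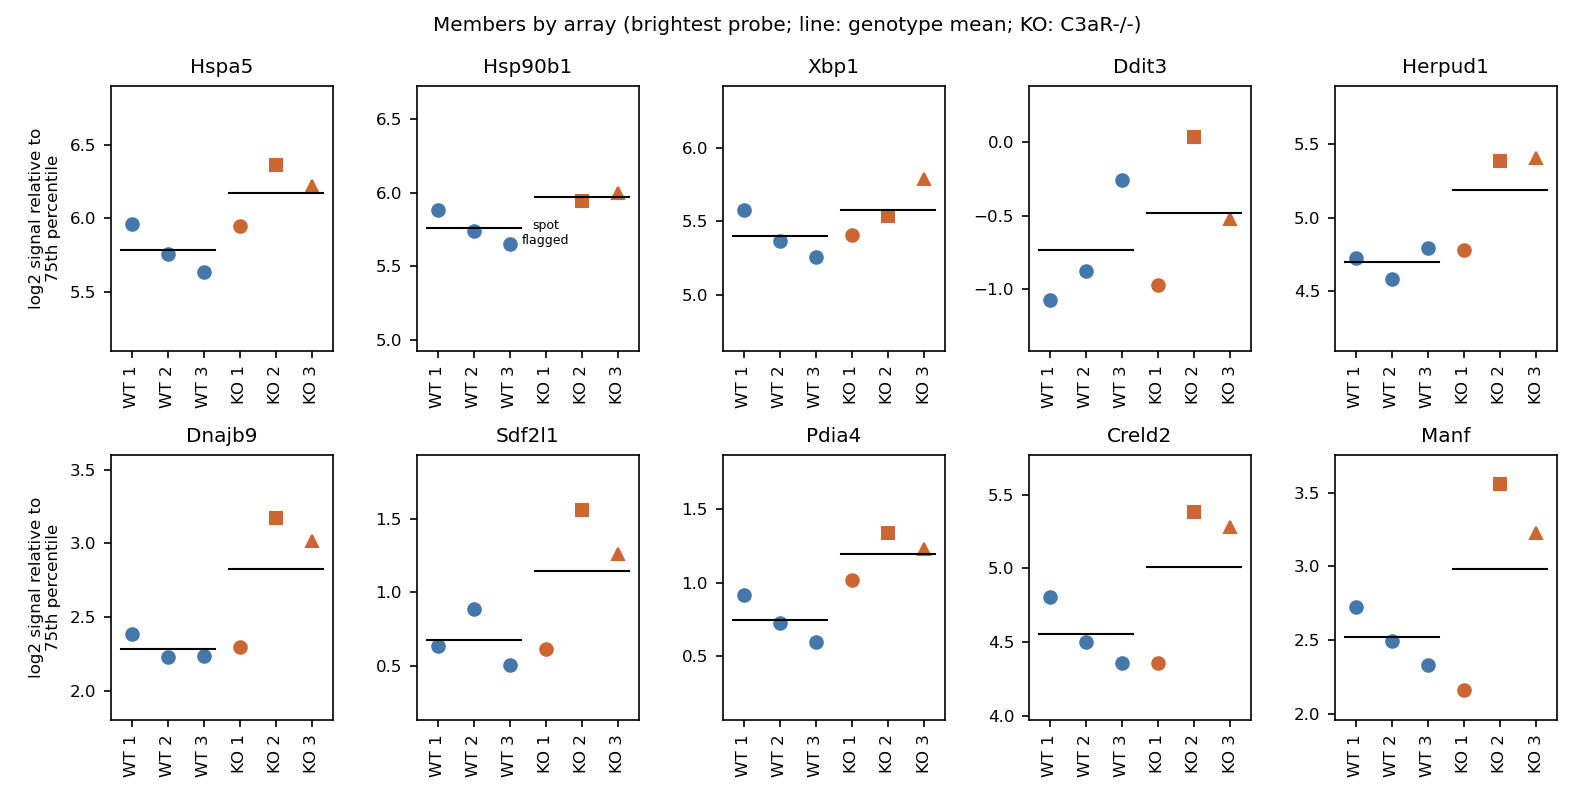
Log2 processed signal relative to each array's 75th percentile, by array, for the probe that stands for each of the 10 members, with WT in blue, C3aR-/- (KO) in orange and a line at each genotype's mean. Each panel has its own axis. KO 1 lies within or below the WT points for 8 of 9 members, KO 2 and KO 3 above all WT points for 9 of 10. Hsp90b1 has no point for KO 1, where its spot was flagged as an outlier.

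Hspa5, the central chaperone and the one that holds the sensors inactive, read 5.96, 5.76 and 5.64 on the WT arrays and 5.95, 6.36 and 6.22 on the C3aR-/- arrays. C3aR-/- replicate 1 fell inside the WT range, and the other two lay above it. The genotype means were 5.79 ± 0.16 (SD, n = 3) and 6.18 ± 0.21 (SD, n = 3), a log2 change of 0.39 (SE 0.13), or 1.31-fold, with an adjusted p of 0.107. Its other 2 probes gave 0.33 (SE 0.27) and 0.39 (SE 0.28), with the same order of the C3aR-/- arrays. On both of these, however, replicate 1 lay below every WT array, at 3.44 against 3.54 to 3.94 and at 2.67 against 2.74 to 3.17. Without C3aR-/- replicate 1 the change was 0.50 with an adjusted p of 0.0668, and in the authors' deposited table it was 0.25 (adjusted p 0.208).

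Hsp90b1 (Grp94) is the ER member of the Hsp90 chaperones and folds a narrower set of clients, among them integrins and Toll-like receptors. It read 5.89, 5.74 and 5.65 on the WT arrays and 5.95 and 6.00 on C3aR-/- replicates 2 and 3. The spot of replicate 1 was left out, because Feature Extraction had flagged it as an outlier, with a processed signal of 12082 against 34490 to 51057 on the other arrays. On the 5 arrays left, the groups did not overlap and the change was 0.21 (SE 0.09, adjusted p 0.183). With the excluded spot kept, a choice made after its value was seen, the change turned to -0.42 (adjusted p 0.609), and in the authors' deposited log2 table it was -0.43 (adjusted p 0.517), so the direction of Hsp90b1 depended on this spot.

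Pdia4 (Erp72), a disulfide isomerase that forms and rearranges disulfide bonds, read 0.91, 0.73 and 0.60 on the WT arrays and 1.02, 1.34 and 1.23 on the C3aR-/- arrays. All 3 C3aR-/- arrays lay above all 3 WT arrays, with replicate 1 the nearest to them. The change was 0.45 (SE 0.12, 1.37-fold) with an adjusted p of 0.058, the smallest of the members. Pdia4 passed under 4 of the 17 alternative settings (normexp background, quantile normalization, median scaling, and trended robust variance), where its lowest adjusted p was 0.0163. Over the alternatives its change ran from 0.37 to 0.61 and its adjusted p from 0.0163 to 0.151. Pdia4 and Hsp90b1 were the only members whose genotypes did not overlap, both higher in C3aR-/-. Of all genes, 22.3% did so in that direction (41.4% in either). For Hsp90b1 this rests on leaving out its flagged spot, which read 4.08 on C3aR-/- replicate 1, below every WT array.

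Dnajb9 (ERdj4) is a co-chaperone that hands Hspa5 to its clients and to Ire1. On the WT arrays it read 2.39, 2.23 and 2.24, and on the C3aR-/- arrays 2.30, 3.17 and 3.02. Replicate 1 was inside the WT range, and replicates 2 and 3 were more than 0.6 above the highest WT array. The change was 0.54 (SE 0.23, adjusted p 0.159), and 0.81 (adjusted p 0.0163) without C3aR-/- replicate 1. A second probe, for which the genotypes did not overlap, gave 0.70 (SE 0.22), with an adjusted p of 0.0929 in the fit of all probes.

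Sdf2l1, a partner of the ERdj co-chaperones that keeps Hspa5 cycling on unfolded proteins, read 0.63, 0.88 and 0.50 in WT and 0.61, 1.56 and 1.26 in C3aR-/-. Again only replicate 1 of C3aR-/- lay among the WT arrays. The change was 0.47 (SE 0.25, adjusted p 0.242) but 0.73 (adjusted p 0.0536) without that array and 0.26 (adjusted p 0.478) without C3aR-/- replicate 2.

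Creld2 and Manf are small secreted or ER-retained proteins that are released or induced under ER stress, Manf also acting as a survival factor. For Creld2 the WT arrays read 4.80, 4.50 and 4.36 and the C3aR-/- arrays 4.36, 5.38 and 5.28. Replicate 1 of C3aR-/- was marginally below the lowest WT array. The change was 0.45 (SE 0.29, adjusted p 0.322), 0.78 (adjusted p 0.0455) without replicate 1 of C3aR-/- and 0.26 (adjusted p 0.597) without its replicate 2.

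Manf was the member with the widest C3aR-/- spread, an SD of 0.73 against 0.20 in WT. It read 2.73, 2.50 and 2.33 in WT and 2.16, 3.56 and 3.23 in C3aR-/-, with replicate 1 below every WT array and the other two above every one. The change was 0.46 (SE 0.36, adjusted p 0.408), 0.88 (adjusted p 0.0428) without replicate 1 of C3aR-/- and 0.18 (adjusted p 0.756) without its replicate 2. The second probe of Manf, whose sequence is shown above, read 1.82, 1.53 and 1.34 in WT and 1.72, 2.92 and 2.73 in C3aR-/-, a change of 0.89 (SE 0.33, adjusted p 0.126 in the fit of all probes). On that probe, replicate 1 lay within the WT range.

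Herpud1, an ER membrane protein that helps to pass unfolded proteins to ERAD, read 4.72, 4.59 and 4.79 in WT and 4.78, 5.38 and 5.40 in C3aR-/-. Replicate 1 lay within the WT range and the other two about 0.6 above its top. The change was 0.49 (SE 0.18, adjusted p 0.125), and 0.69 (adjusted p 0.02) without replicate 1. The second Herpud1 probe read 2.36, 2.23 and 2.43 in WT and 2.64, 3.52 and 3.47 in C3aR-/-. There the genotypes did not overlap, and the change was 0.87 (SE 0.24, adjusted p 0.0685 in the fit of all probes).

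Xbp1 and Ddit3 encode transcription factors of the response. Xbp1 read 5.58, 5.36 and 5.26 in WT and 5.41, 5.53 and 5.79 in C3aR-/-, so that only replicate 3 was above the WT arrays. The change was 0.18 (SE 0.13, adjusted p 0.379), and its other 2 probes gave 0.38 (SE 0.17) and 0.22 (SE 0.18). It was 0.074 (adjusted p 0.723) without C3aR-/- replicate 3, 0.11 without WT replicate 3, 0.27 without WT replicate 1 and 0.10 in the authors' deposited table.

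Ddit3 (CHOP), which drives the pro-apoptotic arm when stress persists, read -1.07, -0.87 and -0.26 in WT and -0.97, 0.04 and -0.52 in C3aR-/-. WT replicate 3 lay above 2 of the 3 C3aR-/- arrays. The change was 0.25 (SE 0.32, adjusted p 0.613). A second probe, designed on another transcript, gave -0.31 (SE 0.34), and WT replicate 3 read -1.28 there against -2.35 to -2.55 on the other arrays. No direction is given for Ddit3, since the mean of its probes gave -0.031, the fit without C3aR-/- replicate 2 gave -0.011, and the other fits with an array left out ran from 0.08 to 0.49.

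**Figure D2:**
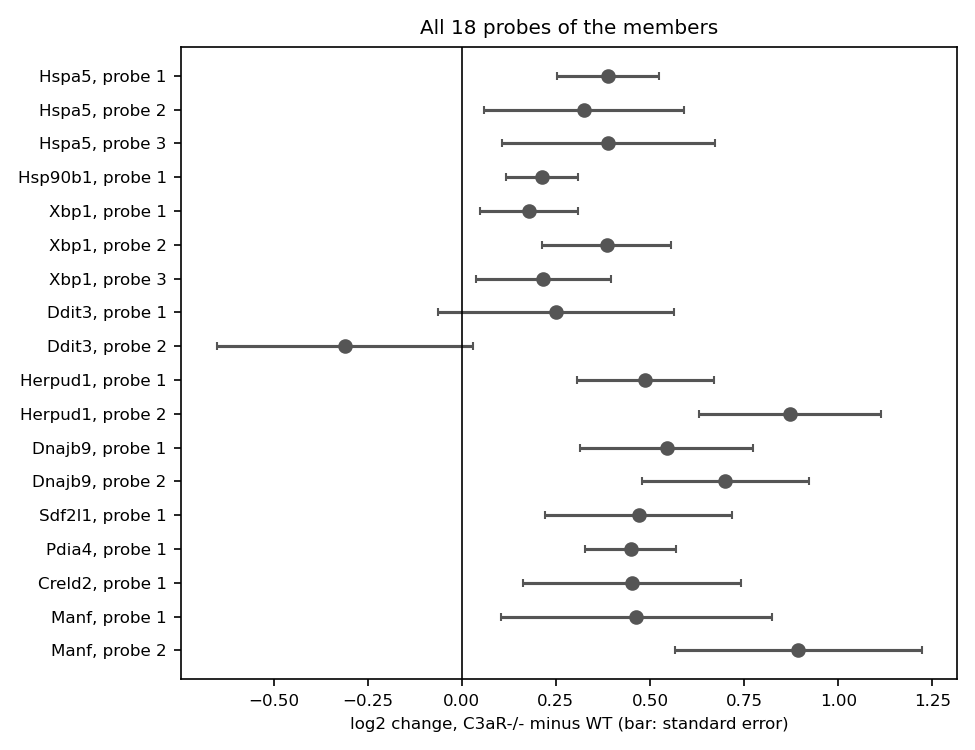
Log2 change (C3aR-/- minus WT) of all 18 probes of the 10 members, with the standard error from the fit of all probes as a bar. Of the 18 points 17 lie to the right of 0, and the exception is the second probe of Ddit3 at -0.31.

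The 3 members with an unadjusted p under 0.05 were Pdia4, Hspa5 and Herpud1. Among the 18 probes, 17 had a positive change (54.8% of all probes) and 0 passed, against 11.7% of all 31030 probes tested. Of these 18, 4 had genotypes that did not overlap, all higher in C3aR-/-, against 22.8% of all probes. Among the 4 was the probe of Hsp90b1, with its flagged spot left out. An unadjusted p under 0.05 was found for 6 of the 18, against 31.9% of all probes. The probes of a gene share its mRNA and are no replicates of each other. The share of members past either threshold was not above that of all genes.

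The spread between arrays of one genotype was summarised by the median SD over genes. That median SD over the 10 members was 0.16 among WT arrays and 0.41 among C3aR-/- arrays, while over all genes these medians were 0.10 and 0.11. Single members differed in this. Dnajb9 was far wider in C3aR-/-, with an SD of 0.088 in WT and 0.47 in C3aR-/-, as were Herpud1, Sdf2l1, Creld2 and Manf. The SDs in WT and C3aR-/- were closer for Pdia4 (0.160 and 0.165), Xbp1 (0.165 and 0.191), Hspa5 (0.163 and 0.209) and Ddit3 (0.43 and 0.50). Hsp90b1 had 0.117 in WT and 0.036 over 2 C3aR-/- arrays, its flagged replicate 1 spot being left out. Measured from the WT mean, the median member was at 0.01 on C3aR-/- replicate 1, at 0.73 on replicate 2 and at 0.53 on replicate 3. Over all genes tested the same medians were 0.03, 0.02 and 0.01 after each array had been centred on its own 75th percentile, which largely sets them.

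On C3aR-/- replicate 1, 1 of the 9 measured members was above all WT arrays (11.1%), 6 were within their range and 2 were below. Replicates 2 and 3 each had 9 of 10 above (90%) and 1 within. For all genes, 39.2%, 35.7% and 35.2% were above the WT range on replicates 1, 2 and 3. Over the probes the counts were 3 of 17 above on replicate 1, and 16 of 18 on each of the other two. What sets C3aR-/- replicate 1 apart for these genes was not tested, and nothing in the labels separates it from the other two.

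**Figure D3:**
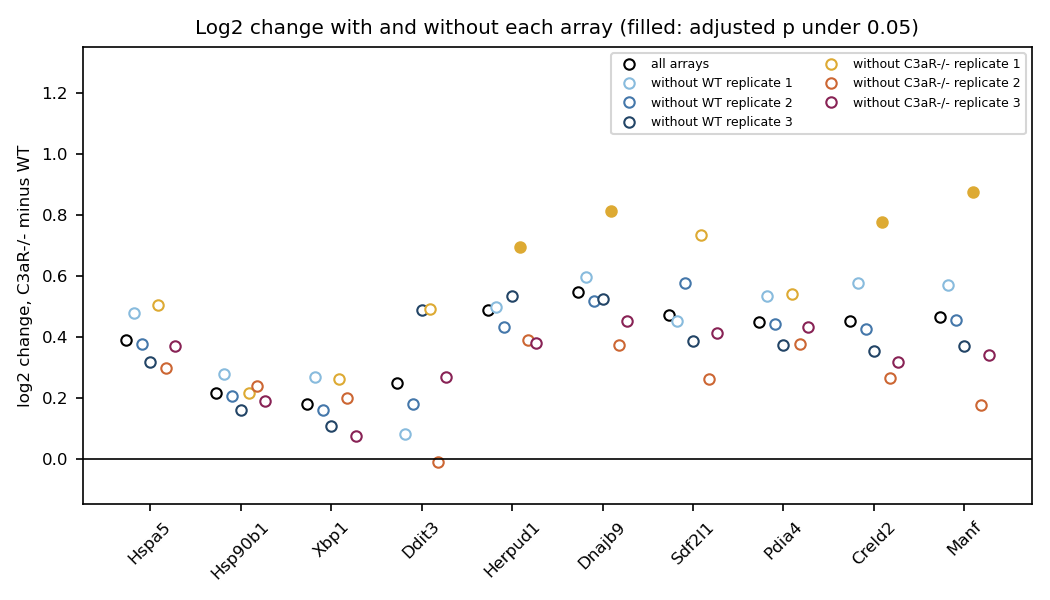
Log2 change (C3aR-/- minus WT) of each member with all arrays and with each array left out in turn, filled where the adjusted p was under 0.05. The filled points, for Herpud1, Dnajb9, Creld2 and Manf, belong to the fit without C3aR-/- replicate 1.

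Leaving out C3aR-/- replicate 1 moved the median change of the members from 0.45 to 0.62 and raised the members called from 0 to 4, beside 8.01% of all genes called and 3.15% called higher in that fit. That array was the lowest of C3aR-/- for every member measured on it, so leaving it out had to raise their changes. The 4 passes are therefore no separate evidence of a difference. Leaving out replicate 2 or replicate 3 of C3aR-/- lowered the median to 0.26 and 0.35, with no member called. Leaving out a WT array gave medians from 0.37 to 0.49 and no call. These fits rest on 2 arrays of one genotype.

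Members were also set beside the gene profiles nearest to Hspa5, taken as the smallest root mean square difference between profiles over the 6 arrays after centring each gene on its mean, among 20510 genes and with no test. The nearest was Pdia4 (0.040 on the log2 scale), followed by Tmem106a and Fchsd1 (0.054 each), Epb41l3 (0.060) and Ecel1 (0.067). All 5 have C3aR-/- replicate 1 below replicates 2 and 3, as Hspa5 has, an order that the choice by distance largely sets. Ecel1 was dim, at -4.99 to -4.17, where the lowest values well above background were -5.47 to -5.09 by array. Other members were further away, with Xbp1 at rank 810, Herpud1 at 1112, Dnajb9 at 1743, Sdf2l1 at 3721, Creld2 at 4355, Manf at 11941 and Ddit3 at 15820. Hsp90b1 was not ranked, having no value on 1 array. All distances are between the brightest probes of the genes, and the order of the members holds for those probes only. On the other probes of Hspa5, C3aR-/- replicate 1 lay below every WT array. On the probes ranked here it did so for Creld2 and Manf as well, but not for Pdia4. Distances from the other probes of Hspa5 were not computed, so which members lie nearest to Hspa5 may depend on its probe.

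Further genes of the response were taken from 7 lists of 145 genes, of which 142 were tested (Ern2, Fkbp11 and Pdia2 were not). Of these, 11 rose and 3 fell in C3aR-/-, 9.86% beside 14.4% of all genes, and their median change was 0.01. Without C3aR-/- replicate 1, 7 rose and none fell, 4.93% beside 8.01% of all genes (3.15% higher): Creb3l3, Eif2ak3, Nupr1, Ero1b, Derl3, Chac1 and Sel1l. Beside the counts by list below, 7.05% of all genes were called higher and 7.33% lower. Where other probes of a called gene had the opposite sign or a change under 0.1 in size, these are given with it. Creb3l3 and Nupr1 lost their call under 1 of the 17 alternatives each (the replicate block, adjusted p 0.0553, and C3aR-/- replicate 3 left out, adjusted p 0.0506), and the other 12 called genes under 6 to 12 each.

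Of 15 tested sensors and transducers, 3 rose and 12 did not pass, with a median of 0.14. Creb3l3 (CREB-H), a membrane-bound factor cut in the same way as Atf6 and known for lipid metabolism in the liver, had the largest change. It read -3.47, -3.13 and -2.80 in WT and -1.14, -1.75 and -1.56 in C3aR-/-, and rose by 1.65 (SE 0.22, adjusted p 0.012). Here C3aR-/- replicate 1 was the highest of the arrays, the opposite of its place among the members.

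Eif2ak3, which encodes the sensor Perk, read 0.64, 0.72 and 0.54 in WT and 0.96, 1.07 and 1.10 in C3aR-/-, a rise of 0.41 (SE 0.07, adjusted p 0.0244). Its second probe gave -0.15 (SE 0.10) and the mean of both 0.13 (adjusted p 0.34), so the probes of Eif2ak3 do not share a direction. Tmbim6, an ER membrane protein that dampens Ire1 and cell death, rose by 0.22 (SE 0.06, adjusted p 0.0487), a call lost under 12 of the 17 alternatives. It was 0.11 (adjusted p 0.211) in the authors' deposited table and 0.14 (adjusted p 0.116) with quantile normalization. The sensor genes Ern1 (Ire1), with a change of 0.19 (SE 0.08, adjusted p 0.145; second probe -0.01), and Atf6, with 0.15 (SE 0.07, adjusted p 0.172), did not pass.

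In the Perk branch and among CHOP targets, 3 of 17 genes rose, with a median of 0.06. Nupr1, a stress-induced chromatin protein, read 0.45, 0.60 and 0.17 in WT and 1.23, 1.36 and 1.38 in C3aR-/-. The groups were well apart, and Nupr1 rose by 0.92 (SE 0.12, adjusted p 0.0116). The BH3-only death genes Bbc3 (Puma) and Bcl2l11 (Bim) rose by 0.63 (SE 0.12, adjusted p 0.0264) and 0.54 (SE 0.12, adjusted p 0.0371), although the other probes of Bcl2l11 gave -0.26 and 0.22 and the mean of its probes 0.17 (adjusted p 0.459). Atf4, the factor at the head of this branch, had a change of -0.21 (SE 0.20, adjusted p 0.512), and its other probe gave -0.22.

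Among the other chaperones and co-chaperones 1 of 26 rose, with a median of -0.01. It was Creld1, the membrane-bound relative of Creld2, by 0.28 (SE 0.06, adjusted p 0.032), or 0.18 (adjusted p 0.0832) with normexp background. Genes named in the rest of this paragraph were chosen after their values were seen. The lectin chaperones Calr (0.11, adjusted p 0.53) and Canx (-0.02, adjusted p 0.833), the co-chaperone Dnajc3 (0.02, adjusted p 0.819) and the nucleotide exchange factor Hyou1 (-0.01, adjusted p 0.974) did not pass. Dnajb11, another Hspa5 co-chaperone, gave 0.26 (adjusted p 0.205).

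Of 18 further disulfide enzymes 2 rose, with a median of 0.05. Ero1b, which passes oxidizing equivalents to the disulfide isomerases, rose by 0.46 (SE 0.08, adjusted p 0.0222). The sulfhydryl oxidase Qsox1 rose by 0.33 (SE 0.08, adjusted p 0.0433), and its other probe gave 0.65. Pdia3 and Pdia6, chosen after their values were seen, gave 0.22 (adjusted p 0.308) and -0.07 (adjusted p 0.633).

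For ERAD, 0 of 25 genes rose and 1 fell, with a median of 0.06. The one that fell was Ube2j2, a ubiquitin-conjugating enzyme, by -0.27 (adjusted p 0.0302), its other probe gave 0.17, and the mean of its probes was -0.05. Derl3 and Sel1l, chosen after their values were seen, had replicate 1 as the lowest C3aR-/- array, as most members did, but above every WT array. Derl3, a channel protein of ERAD, read -1.88, -1.02 and -1.52 in WT and -0.93, 0.08 and 0.22 in C3aR-/-, a change of 1.26 (SE 0.36, adjusted p 0.0697). Sel1l, the partner of the ubiquitin ligase Syvn1, gave 0.51 (SE 0.13, adjusted p 0.052), with probes at 0.40 and -0.20 as well. Without C3aR-/- replicate 1 both passed, Derl3 at 1.62 (adjusted p 0.0336) and Sel1l at 0.64 (adjusted p 0.0278). Since replicate 1 was their lowest C3aR-/- array, leaving it out had to raise both changes.

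Genes of translocation and signal peptide processing gave 1 rise and 2 falls among 25, with a median of -0.02. Sec62 rose by 0.31 (SE 0.07, adjusted p 0.0424), a call lost under 11 of the 17 alternatives, among them each array left out, the authors' deposited table (adjusted p 0.109) and quantile normalization (adjusted p 0.0657). Sec61a2 changed by -0.37 (adjusted p 0.0297; its other probes gave -0.51, 0.46 and -0.15) and Ssr1 by -0.23 (adjusted p 0.043; its other probe gave -0.03). With the mean of each gene's probes these were -0.14 and -0.13. Of the 16 KDEL receptors and COPII coat genes, which return or carry cargo between ER and Golgi, 1 rose: Sec24b by 0.30 (adjusted p 0.0368), with other probes at -0.21 and -0.03 and a mean of its probes of 0.018. Their median was -0.09.

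**Figure D4:**
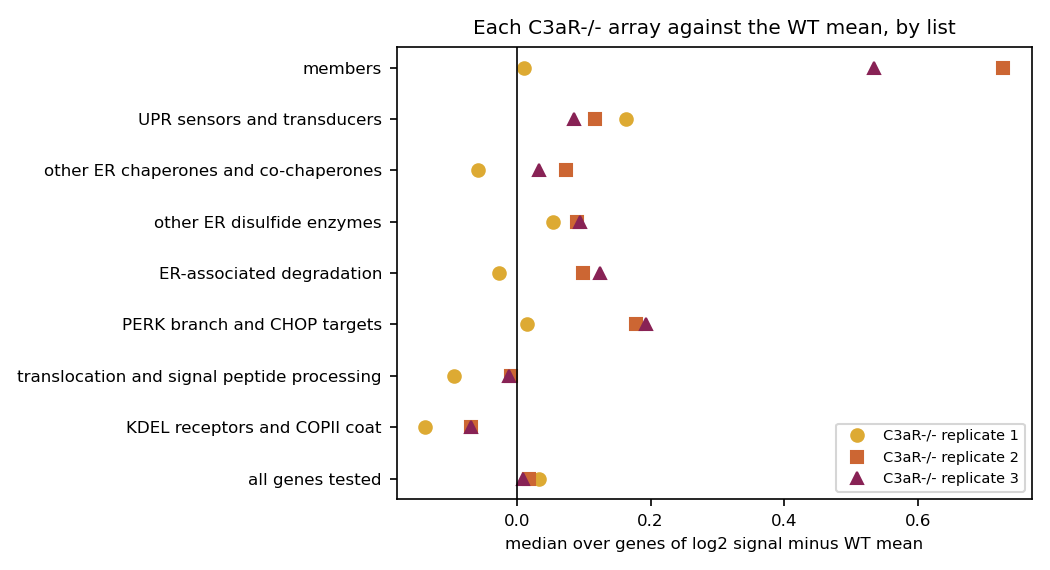
Median over the genes of each list of the log2 signal minus the WT mean, for each C3aR-/- array. The 10 members lie at 0.01, 0.73 and 0.53, while no other list is above 0.20 on any array.

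By array, the further lists lay closer together than the members. On C3aR-/- replicates 1, 2 and 3 the ERAD list had medians of -0.03, 0.10 and 0.12, the Perk and CHOP list 0.02, 0.18 and 0.19, and the other chaperones -0.06, 0.07 and 0.03. Replicate 1 was the lowest of the C3aR-/- arrays in these 3 lists. It was also the lowest for disulfide enzymes (0.05, 0.09 and 0.09), translocation (-0.09, -0.01 and -0.01) and KDEL receptors and COPII coat (-0.14, -0.07 and -0.07). Only in the sensors was it the highest, at 0.16 against 0.12 and 0.09.

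**Figure D5:**
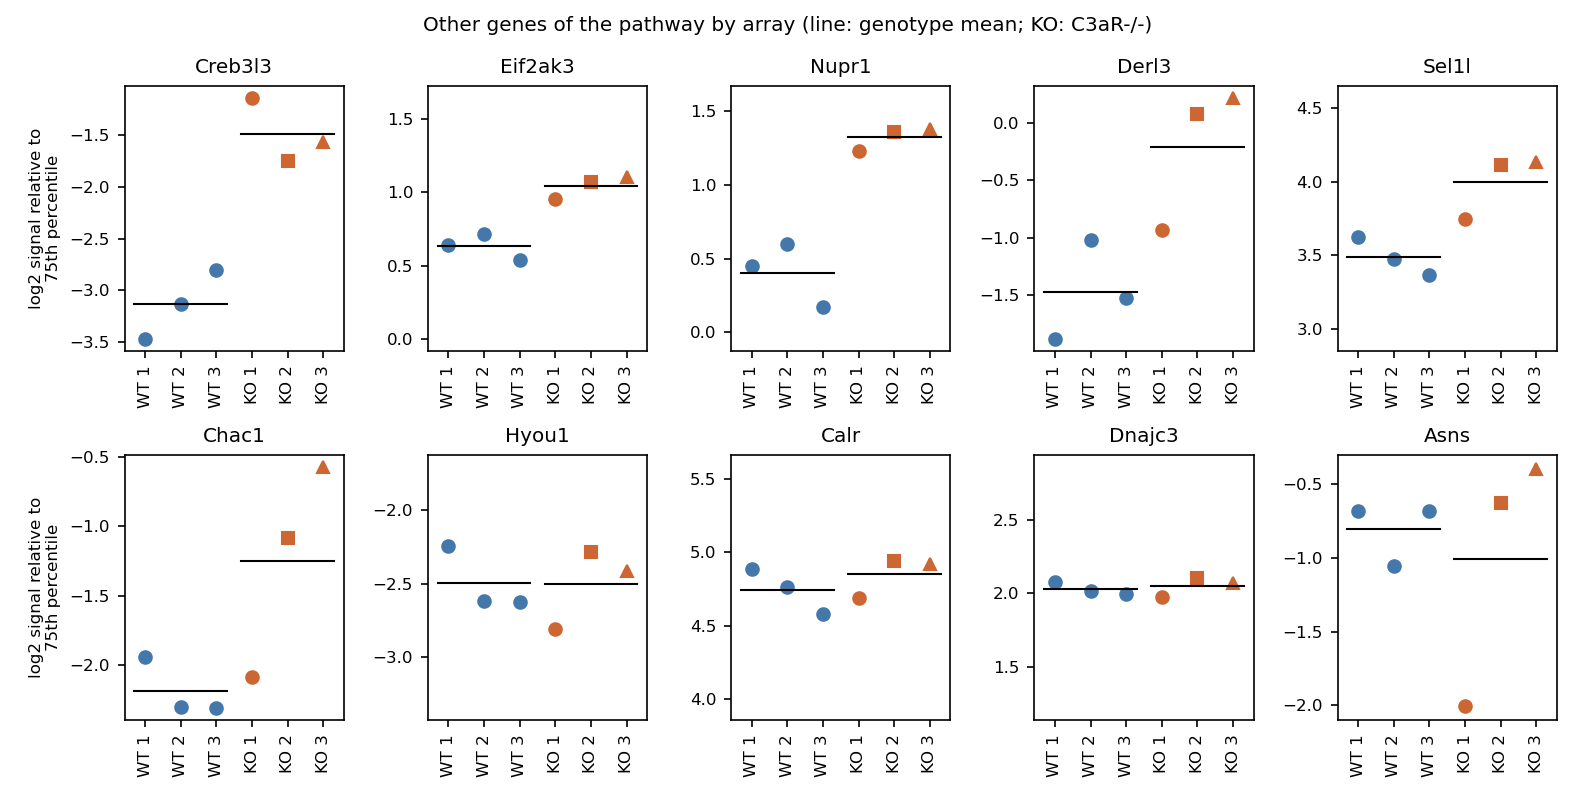
Log2 processed signal relative to each array's 75th percentile for 10 further genes of the response, by array, with a line at each genotype's mean (KO stands for C3aR-/-). Each panel has its own axis. Creb3l3, Eif2ak3 and Nupr1 separate the genotypes on all arrays, Derl3, Sel1l and Chac1 have KO 1 nearest to WT, and Hyou1, Calr and Dnajc3 overlap.

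ERSE was also found in the promoters of 7 of the 119 pathway genes with an entry. Their changes were 1.26 for Derl3, 0.46 for Ero1b, 0.31 for Syvn1 (adjusted p 0.298), 0.11 for Calr, 0.02 for Dnajc3, -0.02 for Canx and -0.07 for Pdia6. Of these only Ero1b passed. Among the members with ERSE the changes were 0.39 for Hspa5, 0.45 for Creld2 and 0.21 for Hsp90b1, and those of the matched members without it ran from 0.18 to 0.54.

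Plasma cells carry much of the machinery described here, so markers of other cells were read beside it. Among 9 tested of 13 listed B cell and plasma cell genes, 3 fell and none rose, beside 7.33% of all genes called lower and 7.05% higher. Those that fell were Jchain by -2.65 (adjusted p 0.00339), Pou2af1 by -1.23 (adjusted p 0.0443) and Mzb1 by -0.69 (adjusted p 0.0205). Pou2af1 was dim, at -5.10, -5.10 and -5.76 in C3aR-/-, and was well above background on 5 of 6 arrays. Without C3aR-/- replicate 1 it did not pass (adjusted p 0.0761). Cd79a, Tnfrsf17, Irf4 and Fcrla did not pass the filter on dim probes. The summed level of the 9 genes, in multiples of each array's 75th percentile, was 4.06 to 5.04 in WT and 1.97 to 2.36 in C3aR-/-. Jchain carried most of this sum. Without it the other 8 genes summed to 1.10 to 1.52 in WT and 1.45 to 1.85 in C3aR-/-, and without Derl3 as well, which belongs to the list too and had a change of 1.26 (adjusted p 0.0697), to 0.75 to 1.23 and 0.64 to 0.92. In such whole-tissue samples fewer cells of a type and less RNA per cell cannot be told apart.

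Beside the marker counts below, 52.7% of all genes were positive, 7.05% were called higher and 7.33% lower. Markers of the proximal tubule, which makes up most of the cortex, were positive in 11 of 11, and 3 rose. Their summed level was 855 to 927 in WT and 1073, 1019 and 1046 on C3aR-/- replicates 1, 2 and 3. Podocyte markers were positive in 5 of 5 with 1 rise, at 16.7 to 20.2 in WT and 20.9 to 24.2 in C3aR-/-. The 7 collecting duct markers had 2 rises and 1 fall, with a summed level of 49.7 to 50.8 in WT and of 60.4, 64.6 and 58.4 on C3aR-/- replicates 1, 2 and 3. Thick limb markers had 1 rise and 1 fall among 4, distal convoluted tubule markers 1 fall among 3, endothelial markers 1 rise and 1 fall among 6, and T cell markers neither among 6. Macrophage markers had 1 fall (Cd68) among 9, at 23.2 to 26.3 in WT and 18.3 to 27.5 in C3aR-/-. Markers of the adrenal gland and of fat had 1 tested gene of 3 each, with summed levels under 0.20. The inner medulla list had 1 tested gene of 2, Aqp4, with a change of -0.74 (SE 0.73, adjusted p 0.517). Aqp4 read -2.51, -0.97 and -0.10 in WT and -0.82, -2.54 and -2.44 in C3aR-/-, so replicate 1 was the highest C3aR-/- array. All tubule and podocyte markers of the labelled tissue passed the filter on dim probes, and the part of cell makeup in the members' values was not tested.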

How the data were processed

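RNA from 3 WT and 3 C3aR-/- kidney cortex samples was labelled with Cy3 from 0.2 µg RNA each, per the labels' protocols, and hybridized to one-colour arrays. Per the file headers, Agilent Feature Extraction 10.7.1.1 gave each spot a background-subtracted intensity (the processed signal), flags and an mm9 position. A log2 table deposited by the authors has columns with equal sorted values (within 0.000903) that correlate at 0.995 to 0.996 with their own array's log2 processed signal. Its median is 5.38, its direction follows the arrays, and its centring and filters are not given in the sources used here, so it served as an alternative.

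Titles gave the groups and replicate numbers. Controls and outlier-flagged spots were dropped, the log2 processed signal was centred on the 75th percentile of an array's transcript spots, and repeated spots were averaged per probe. Probes well above background on all unflagged arrays of at least 1 genotype were kept, and a probe could lack 1 array in a genotype, as Hsp90b1 did. The brightest of a gene's probes stood for it. RefSeq symbols (GRCm38.p6) matched 32994 of 56605 probes, and the rest kept the array's name. Genotypes were compared in R 4.3.3 with limma 3.58.1 (two-sided moderated test from lmFit and eBayes), with Benjamini-Hochberg adjustment over all 20596 genes, or over 31030 probes for values given per probe. The fits were tested on simulated data.

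The members and the gene lists were chosen with earlier results of these data known. Named are all members and probes, Ern1, Eif2ak3, Atf6 and Atf4, up to 4 called genes of each list by smallest p, called markers of B cells and plasma cells, and the 5 genes nearest to Hspa5. Genes outside this rule are marked in the text or stand in a count. Alternatives covered background correction, normalization, filter, probe choice, gene names, variance model, the deposited table, the replicate block and each array left out.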

Additional observations from a re-analysis of the deposited data

How the results depend on the processing

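The members' changes kept a positive sign under all 17 alternatives for 8 of the 10 genes. Ddit3 turned to -0.031 with the mean of its probes, and with an array left out it ran from -0.011 (without C3aR-/- replicate 2) to 0.49 (without C3aR-/- replicate 1). Hsp90b1 turned to -0.42 with outlier spots kept (chosen after seeing the data) and to -0.43 in the deposited log2 table, where the flagged spot enters. The count of members called, 0 with all arrays, was 1 (Pdia4) with normexp background, quantile normalization, median scaling, or trended and robust variance, and 0 to 4 with an array left out, the 4 coming without C3aR-/- replicate 1. Genes called over the whole array, 2962 with all arrays, were 926 with no filter on dim probes, where 37325 genes were tested, and 656 to 1670 with an array left out, where fewer arrays entered. Pathway genes called, 14 with all arrays, were 2 with no filter and 1 to 7 with an array left out. Median scaling moved the split of called genes from 1453 higher and 1509 lower to 1833 higher and 1062 lower, and the median of all genes from 0.02 to 0.07.

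Same-numbered samples of the genotypes had deviations correlated at 0.0387, -0.029 and -0.0718, so the numbers do not pair the samples. With the replicate number as a block, 670 genes, 0 members and 2 pathway genes were called. Depth in the sequencing sense does not apply, and 3 arrays a genotype limit the precision.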

Other observations

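A few genes outside the response, chosen after their values were seen, had C3aR-/- replicate 1 nearest to WT as the members did. Dbp, a clock-controlled transcription factor, read 1.51, 1.40 and 1.68 in WT and 1.49, 3.60 and 2.96 in C3aR-/-, a change of 1.15 (SE 0.52, adjusted p 0.179), and 1.75 (adjusted p 0.0192) without C3aR-/- replicate 1. In that fit 8.01% of all genes passed, 3.15% of them all as higher. For a gene picked for its low replicate 1, leaving that array out raises the change by construction, so the pass is no separate evidence. The clock repressor genes Nr1d1 and Nr1d2 rose by 2.15 (SE 0.39, adjusted p 0.0242) and 1.07 (SE 0.24, adjusted p 0.0391), with replicate 1 above every WT array and below the other C3aR-/- arrays in both. The labels give no time of day at which the mice were killed, so its part in these values was not tested.

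Cytosolic heat shock genes, chosen in the same way, mostly had a like order. Hspa8, the constitutive cytosolic Hsp70, rose by 0.60 (SE 0.12, adjusted p 0.032), with C3aR-/- values of 6.34, 6.51 and 6.65 against 5.71, 5.90 and 6.08 in WT. Of its other 3 probes 2 had replicate 1 as the lowest C3aR-/- array as well, but 1 read 6.31, 6.20 and 6.12, with replicate 1 the highest (change 0.59, adjusted p 0.0138 in the fit of all probes). Hsph1, a nucleotide exchange factor of Hsp70, read 3.75, 3.83 and 4.03 in WT and 4.17, 4.83 and 5.05 in C3aR-/-, a change of 0.82 (SE 0.23, adjusted p 0.0677). Dnaja1 and Chordc1, partners of Hsp70 and Hsp90, gave 0.47 (adjusted p 0.157) and 0.43 (adjusted p 0.143), and 0.68 (adjusted p 0.0341) and 0.64 (adjusted p 0.0148) without C3aR-/- replicate 1. As for Dbp, these passes follow from how the genes were picked. The second probe of Chordc1 gave 0.071. Whether these genes and the members share a source of variation was not tested.

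Asns, a target of Atf4 that makes asparagine, was also chosen after its values were seen. It read -0.68, -1.05 and -0.68 in WT and -2.01, -0.63 and -0.39 in C3aR-/-, so replicate 1 was the lowest of all arrays. Its change was -0.20 (SE 0.43, adjusted p 0.766), and its second probe gave 0.077. Chac1, another Atf4 target chosen in that way, read -1.94, -2.30 and -2.31 in WT and -2.09, -1.09 and -0.57 in C3aR-/-, a change of 0.93 (SE 0.38, adjusted p 0.147).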
